A study of Mus musculus with 18 samples.

Results

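Motoneurons are recognised by a small set of genes, and 10 of them were followed here in cultured mouse motoneurons and their axons. They were Chat, Slc18a3, Slc5a7 and Ache, which serve acetylcholine, and the transcription factor genes Isl1, Isl2, Mnx1, Lhx3, Lhx1 and Foxp1. Members were found by gene symbol. The arrays carried 20 probe sets for these 10 genes, of 18191 genes measured in all. For Isl1, Lhx3 and Lhx1 there were 2 probe sets each, for Foxp1 8, and for the others 1. Each gene is led by its probe set of highest mean level on the 18 arrays, and every probe set was examined.

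RNA was measured on 18 Affymetrix Mouse430_2 arrays, 3 in each of 6 groups. Spinal cords of E12.5 mouse embryos, freed of dorsal root ganglia and meninges, gave the cells, which were enriched by p75 panning (capture by a neurotrophin receptor). They grew for 7 days in microfluidic chambers that lead axons into a compartment of their own. All groups received BDNF at 20 ng/ml in the axonal compartment and CNTF at 5 ng/ml in both. The somatodendritic compartment, which holds the cell bodies and dendrites, and the axonal compartment were each sampled from wild-type cultures without virus, from cultures with an empty lentiviral vector, and from cultures with a lentiviral short hairpin RNA against Smn, called Smn knockdown below. Smn encodes the survival motor neuron protein, whose loss causes spinal muscular atrophy in humans. Panning enriches motoneurons and leaves other cells in place, the labels give neither strain nor embryo number, and they do not say whether replicate arrays stem from independent cultures. The p-values therefore measure the spread between arrays, which may be technical.

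The LIM-homeodomain proteins Isl1, Isl2, Lhx3 and Lhx1 act in combinations that set spinal motoneurons apart from interneurons and divide them into columns. Isl1 and Lhx3, joined by the adaptor Ldb1, switch on motoneuron genes, and Mnx1 (Hb9) holds interneuron genes down. Lhx1 and Foxp1 mark lateral motor columns, whose axons run to the limbs, and Lhx1 is also present in several classes of spinal interneuron. In the cholinergic gene locus, Slc18a3, the transporter that fills vesicles with acetylcholine, lies within the Chat gene, which encodes the enzyme that makes it. Slc5a7 takes up choline and Ache breaks acetylcholine down in the synaptic cleft.

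Promoter sequences of 4 members are shown because they belong to the locus that both central cholinergic genes share and to both genes that gave a measurable level. Each window holds the 250 bases before a gene's start, from RefSeq on the mouse build GRCm38.p6, on the gene's own strand, which is the minus strand in all 4. Capitals mark TAAT or ATTA, the core letters that homeodomain proteins prefer. Chat and Slc18a3 lie on chromosome 14, with starts 1059 bases apart, Lhx1 lies on chromosome 11 and Foxp1 on chromosome 6.
Chat, chr14:32465910-32466159: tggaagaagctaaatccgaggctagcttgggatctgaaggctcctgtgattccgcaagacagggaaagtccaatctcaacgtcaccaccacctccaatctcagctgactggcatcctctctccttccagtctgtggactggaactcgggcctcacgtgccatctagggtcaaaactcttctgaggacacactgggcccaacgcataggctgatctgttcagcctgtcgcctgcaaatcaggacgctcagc
Slc18a3, chr14:32464851-32465100: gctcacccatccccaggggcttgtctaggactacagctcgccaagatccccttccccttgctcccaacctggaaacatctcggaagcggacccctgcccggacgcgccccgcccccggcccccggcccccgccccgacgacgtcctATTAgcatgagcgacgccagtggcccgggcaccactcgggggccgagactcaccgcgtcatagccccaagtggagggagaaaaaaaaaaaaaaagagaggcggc
Lhx1, chr11:84525535-84525784: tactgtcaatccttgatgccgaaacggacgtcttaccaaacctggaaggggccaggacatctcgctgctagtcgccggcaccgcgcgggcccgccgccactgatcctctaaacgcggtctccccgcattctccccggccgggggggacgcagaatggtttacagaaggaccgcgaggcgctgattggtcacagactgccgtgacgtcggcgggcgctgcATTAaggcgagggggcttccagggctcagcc
Foxp1, chr6:99266516-99266765: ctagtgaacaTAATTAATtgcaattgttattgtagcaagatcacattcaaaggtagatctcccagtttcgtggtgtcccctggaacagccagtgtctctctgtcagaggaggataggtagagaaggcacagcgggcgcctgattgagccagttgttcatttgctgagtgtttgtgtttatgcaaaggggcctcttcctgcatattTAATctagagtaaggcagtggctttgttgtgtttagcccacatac
Chat had no match in this window, Slc18a3 and Lhx1 had 1 ATTA each, and the Foxp1 window had 3 TAAT and 1 ATTA, which overlap in part. Foxp1 has 3 annotated windows, and the one with the most matches is printed, a choice made after counting. All 10 members had at least 1 window, and 7 of their 13 windows held the motif, searched as TAAT on both strands. Of all 32851 promoter windows of the same length, 54.9% held it, so the members' share lay near that of promoters at large. A match describes letters only.

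Values are log2 expression values as deposited, scaled by the authors to a common distribution within each compartment but apart between them. Background on an array is the value that 95% of 147 probe sets for genes of other tissues, such as olfactory receptors, stay under. It lay between 6.27 and 6.53 on the somatodendritic and between 6.41 and 7.26 on the axonal arrays. To be above background in a group, a gene had to exceed that level on all 3 of its arrays, and a gene is called where limma's adjusted p is under 0.05. Genes above the level numbered 9981 to 10528 on a somatodendritic and 6120 to 10046 on an axonal array, with 6120 to 7312 in axonal Smn knockdown and 6702 to 10015 in axonal empty vector arrays. The axonal knockdown replicate 1 (r = 0.539 over genes with the mean of the somatodendritic controls) and empty vector replicate 2 (0.705) were the least correlated of their groups. Smn1, the targeted gene, lay at or below background on 17 of 18 arrays, at 4.86 to 5.38 on the somatodendritic and 4.96 to 7.01 on the axonal ones. Its knockdown minus empty vector differences were -0.14 (limma adjusted p = 0.41) and -0.66 (0.49), so at this signal its depletion could not be checked.

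The first question was whether the cultures gave the transcripts that define motoneurons, and most of the 10 genes did not rise above background on these arrays. Of 20 probe sets, 11 were at or below background on all 18 arrays. Chat, Slc18a3, Slc5a7, Ache and Mnx1, 5 of 10 genes, had every value at or below it, as had 27.9% of all genes. Lhx1 and Foxp1 were the 2 members above background on all 9 somatodendritic arrays, where 50.4% of all genes were. In the axonal groups Lhx1 passed in wild-type, Foxp1 in empty vector, and both in Smn knockdown cultures. There 38.2%, 29.8% and 22.4% of all genes passed.

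Genes shared by all neurons were far above background in the same RNA. All 12 measured pan-neuronal genes, among them Tubb3, Snap25 and Map2, were above background on all 9 somatodendritic arrays, and 8 of 12 on all 9 axonal arrays. Of 18 measured genes of motoneuron columns, pools and subtypes, 13 were above background on all 9 somatodendritic arrays, among them Ret and Gfra1, which form the receptor for the trophic factor GDNF, and the transcription factors Pbx3 and Meis1. Of 18 measured markers of other spinal neurons, 10 were, among them Gad1, Gad2, Slc32a1 and Slc6a5 of inhibitory and Slc17a6 of excitatory neurons. So were 1 of 4 sensory neuron markers, 7 of 8 of astrocytes, 4 of 4 of the oligodendrocyte lineage, 5 of 5 of progenitors and dividing cells, 4 of 14 of microglia and macrophages and 2 of 3 of Schwann and neural crest cells. None of 5 fibroblast, 6 skeletal muscle and 3 erythroid markers was. Of the members, Chat, Slc18a3, Slc5a7, Ache and Mnx1 were thus at or below background throughout, Isl1, Isl2 and Lhx3 on most arrays, and Lhx1 and Foxp1 were measured in cell bodies, beside genes of neurons in general and of other spinal neurons. A level at background on an array shows no signal above it for that probe set and does not show that a transcript was absent. Fewer cells of a type and less RNA per cell cannot be told apart in such samples.

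**Figure D1:**
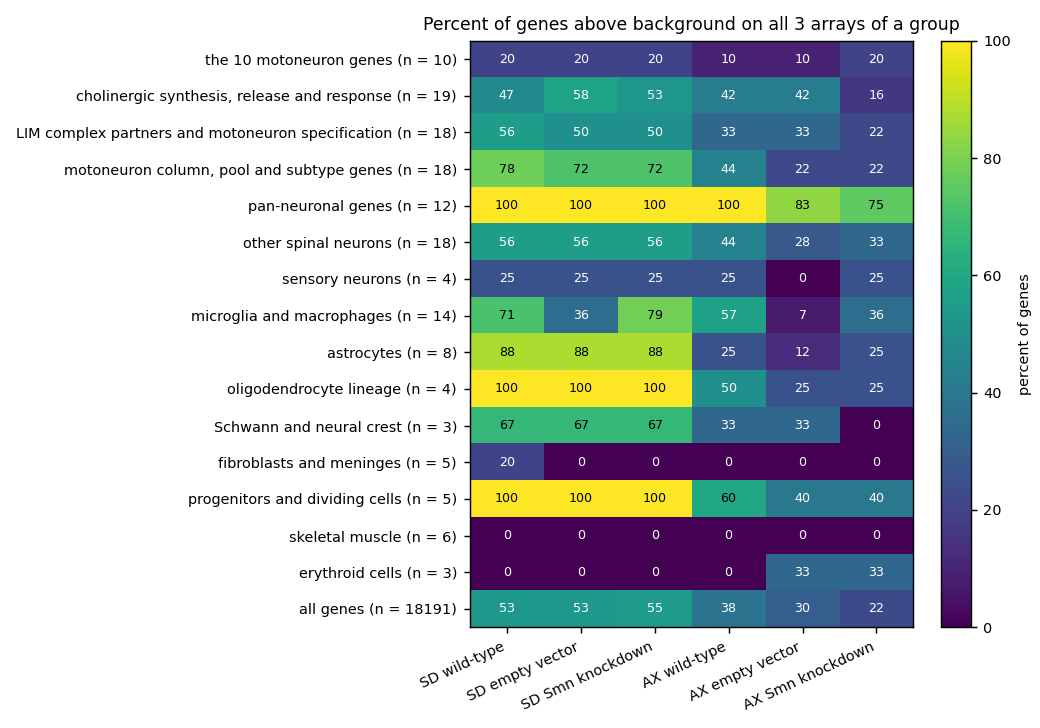
Heat map of the percent of genes above background on all 3 arrays of a group (columns, SD somatodendritic, AX axonal) for the 10 motoneuron genes, related lists, marker lists and all genes (rows, with the number measured). The 10 genes stand at 20 percent in every somatodendritic group, and the pan-neuronal row is full there, with all 12 genes above background.

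The 4 cholinergic genes were at or below background on every array. Chat, which makes acetylcholine, lay between 5.55 and 5.86 on the 9 somatodendritic arrays (median 5.78) and between 5.52 and 6.16 on the axonal ones. Slc18a3, the vesicular transporter, lay at 3.69 to 3.99 (median 3.80) in the somatodendritic compartment. On the axonal arrays it read 4.53, 4.41 and 4.33 in wild-type, 4.60, 4.54 and 4.33 with the empty vector and 5.39, 5.52 and 5.13 with Smn knockdown. The 3 axonal knockdown arrays were the highest of all 18, and each stayed below the background level of its own array. Slc5a7, the choline transporter, lay at 3.59 to 4.03 in the somatodendritic and 3.64 to 4.53 in the axonal compartment. Ache, the esterase, lay at 4.54 to 5.05 and 5.12 to 6.19. With knockdown against empty vector in cell bodies, Chat differed by 0.07 (limma adjusted p = 0.64) and Slc5a7 by 0.06 (0.76).

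Among the transcription factors, Isl1, Isl2 and Lhx3 exceeded background on some arrays only. The leading probe set of Isl1 read 6.27, 6.60 and 6.14 in somatodendritic wild-type, 6.45, 5.65 and 6.72 in empty vector and 5.93, 5.72 and 5.72 in Smn knockdown arrays. One wild-type and 1 empty vector array exceeded the level, no knockdown array did, and the empty vector arrays spread over those of both other groups. Its second probe set lay below background on all 18 arrays, as did that of Lhx3. Isl2 lay at 5.81 to 6.29 on the somatodendritic arrays and at 6.65 to 7.18 on the axonal ones, where 4 of 9 arrays, all of controls, exceeded background. Mnx1 lay at 4.27 to 4.64 and at 4.87 to 5.88. Lhx3 lay at 5.71 to 6.35 in the somatodendritic compartment, and on the axonal arrays a single wild-type array, at 7.39, stood above background while the other 8 lay between 4.29 and 5.84.

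**Figure D2:**
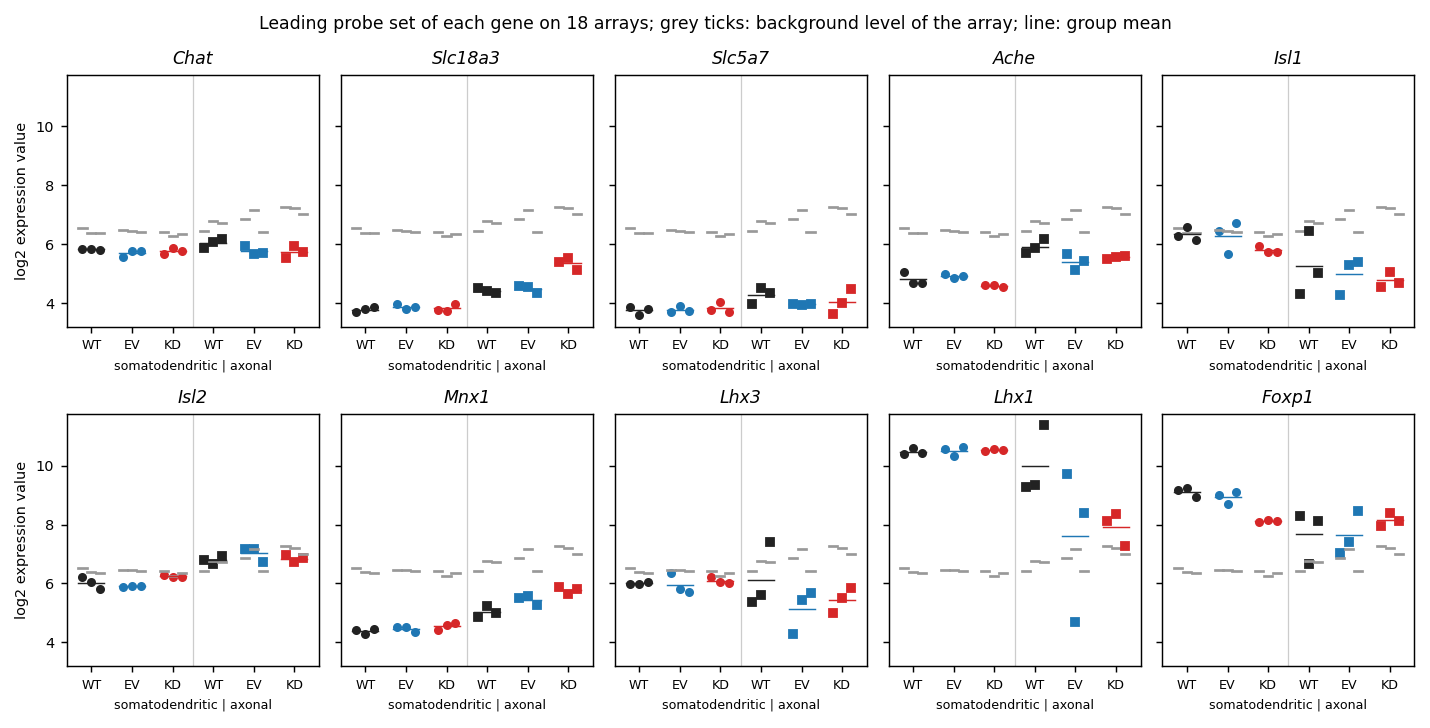
Log2 expression values (y axis) of the leading probe set of each of the 10 genes on all 18 arrays, by group (x axis, WT wild-type, EV empty vector, KD Smn knockdown). Circles are somatodendritic and squares axonal arrays, coloured lines group means, and grey ticks the background level of each array. Lhx1 and Foxp1 stand above the ticks on all somatodendritic arrays, and the cholinergic genes lie below them throughout.

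Lhx1 gave the highest signal of any member's probe set, and it held steady in cell bodies. It read 10.39, 10.60 and 10.42 in somatodendritic wild-type, 10.54, 10.33 and 10.64 in empty vector and 10.49, 10.58 and 10.53 in Smn knockdown arrays. The groups overlapped, and the knockdown minus empty vector difference was 0.03 (SE 0.10, limma adjusted p = 0.88). On the axonal arrays the same probe set spread widely, at 9.28, 9.35 and 11.36 in wild-type, 9.72, 4.69 and 8.39 in empty vector and 8.11, 8.35 and 7.26 in knockdown cultures. The value of 4.69 came from empty vector replicate 2, and the other 8 axonal arrays were above background. A second Lhx1 probe set, made from the same source sequence, was above background on all 18 arrays. It read 6.99, 6.79 and 6.89 in somatodendritic wild-type, 6.87, 6.97 and 6.83 in empty vector and 7.31, 7.19 and 7.18 in knockdown arrays. Here the knockdown arrays lay above all controls. Of all genes, 43.3% had no overlap between knockdown and empty vector arrays, and 48.7% none between knockdown and wild-type arrays.

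The comparison of knocked-down cells with empty vector cells, on the somatodendritic arrays, asks which transcripts change when Smn is targeted. Foxp1, a forkhead transcription factor that assigns motoneurons to limb columns, fell in this comparison. Its leading probe set, 1435221_at, read 9.16, 9.25 and 8.94 in wild-type, 8.995, 8.70 and 9.11 in empty vector and 8.09, 8.16 and 8.13 in knockdown arrays. All 3 knockdown arrays lay below all 6 controls, and the 2 control groups overlapped. Knockdown arrays did not overlap empty vector ones in 43.3% of all genes, and wild-type ones in 48.7%. The fall against empty vector was -0.81 on the log2 scale (SE 0.12, 3 arrays per group, limma adjusted p = 2.5e-04), or 1.75-fold, and against wild-type -0.99 (SE 0.12, 3.9e-05), or 1.99-fold. Empty vector and wild-type differed by -0.18 (0.46). Both falls share the knockdown arrays and are not independent of each other. The call held without any single array, with p adjusted over all probe sets of at most 0.0026. The call ended when the spread was estimated over all 18 arrays, axonal ones included (adjusted p = 1 and 0.47).

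The 8 Foxp1 probe sets did not all follow the lead. Probe set 1435222_at, from the same source sequence, read 8.09, 7.70 and 7.96 in wild-type, 7.97, 7.48 and 8.38 in empty vector and 6.96, 6.97 and 7.10 in knockdown arrays, again with the knockdown arrays below all controls. Its difference was -0.94 (SE 0.18, limma adjusted p = 0.0027 over all probe sets), or 1.92-fold lower, from empty vector and -0.91 (0.0024), or 1.88-fold lower, from wild-type. Among all 45026 probe sets 20.6% were called in either direction against empty vector, and 14.4% lower and 14.1% higher against wild-type. The share of all probe sets without overlap was not counted. The remaining 6 probe sets differed from empty vector by -0.25 to -0.05, and none was called. One of them, 1421140_a_at, was above background on all 9 arrays. It read 6.79, 6.59 and 6.61 in wild-type, 6.88, 6.79 and 6.86 in empty vector and 6.74, 6.70 and 6.67 in knockdown arrays, and its differences were -0.14 (adjusted p = 0.30) and 0.04 (0.78). The other 5 lay below background on every somatodendritic array. Of these, 1421141_a_at was called lower against wild-type (-0.35, adjusted p = 0.012), with no fold given at that level. The decline of Foxp1 was thus read by both bright probe sets of 1 source sequence and not by the dimmer one from another. A further probe set of the first source, 1455242_at, lay below background and was not called against either control.

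**Figure D3:**
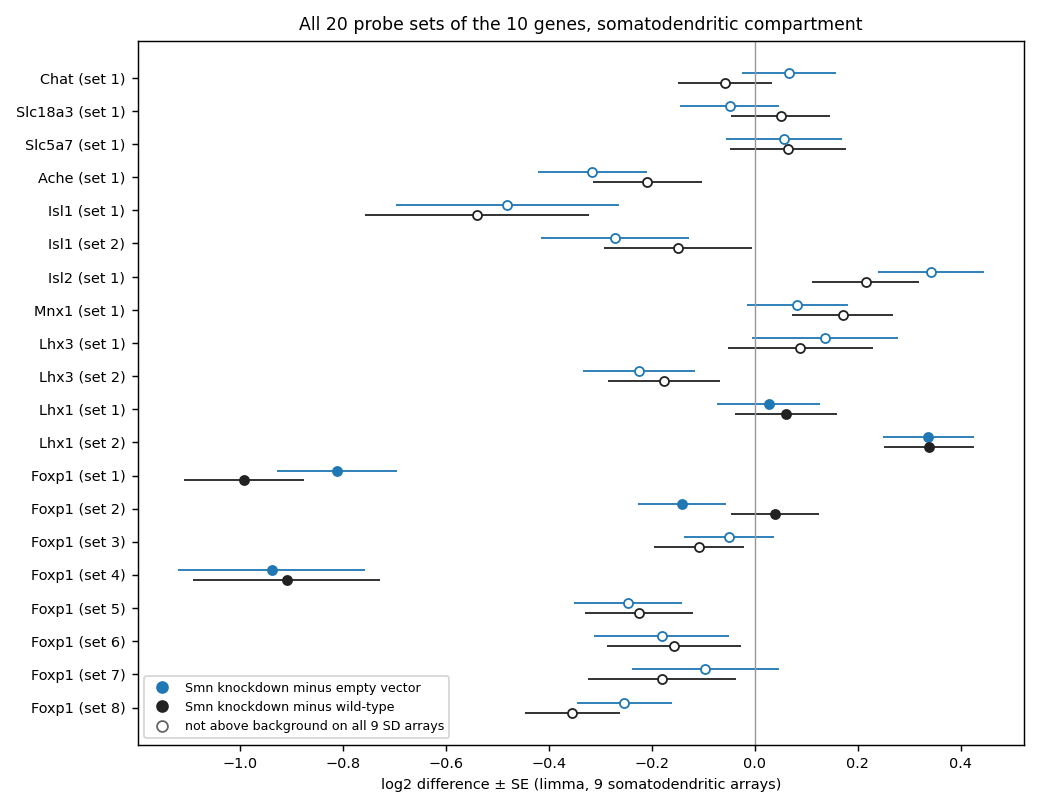
Log2 differences (x axis, with limma's SE as bars) of Smn knockdown from empty vector (blue) and from wild-type (black) on the somatodendritic arrays for all 20 probe sets (y axis, numbered by mean level within a gene). Filled points are above background on all 9 arrays. Foxp1 sets 1 and 4 stand between -0.99 and -0.81, and the other points lie between -0.54 and 0.34.

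Of the 10 leading probe sets, 1 was called higher and 2 lower with Smn knockdown against empty vector. In this comparison 28.0% of all genes were called in either direction, so 3 of 10 lies near the share of all genes. The median difference was 0.04 over the members and -0.02 over all genes. Besides Foxp1 these calls were of dim genes. Isl2 read 5.87, 5.92 and 5.92 with the empty vector and 6.29, 6.22 and 6.22 with knockdown, a difference of 0.34 (SE 0.10, limma adjusted p = 0.025), with wild-type at 6.23, 6.05 and 5.81. Ache read 4.98, 4.86 and 4.91 against 4.63, 4.63 and 4.54, a difference of -0.32 (SE 0.10, 0.040), with wild-type at 5.05, 4.70 and 4.68. In both genes the arrays of these 2 groups did not overlap, as in 43.3% of all genes. Both groups were at or below background, so no fold is given. The Ache call ended whichever of the 6 arrays was left out (adjusted p 0.053 to 0.12), and the Isl2 call ended without any of 5 of them (0.055 to 0.086), all but empty vector replicate 2 (0.049).

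Against wild-type Foxp1 alone of the 10 was called, 0 higher and 1 lower, where 15.6% of all genes were called higher and 20.4% lower. When each array was shifted to a common mean of the pan-neuronal genes, the median of all genes moved by -0.24 in this comparison, and 14.4% of the calls were higher in place of 43.3%. After that shift 3 of 10 were called, with Foxp1 at -1.23, Ache at -0.45 (limma adjusted p = 0.0043 over all probe sets) and Isl1 at -0.78 (0.0081). Isl2 stood at -0.027 (0.86). Of all 18191 genes 1416 were called higher and 8451 lower after the shift, so 3 of 10 does not exceed the share of all genes. Of the 8 Foxp1 probe sets all but 1421140_a_at (-0.20, 0.12) were then called lower, 5 of them at or below background. The share of all probe sets called lower after the shift was not counted, so these calls do not set Foxp1 apart. Of the 12 pan-neuronal genes behind the shift, 4 were called higher and 3 lower in this comparison. Without the shift Isl2 was at 0.22 (limma adjusted p = 0.13), Ache at -0.21 (0.14) and Isl1 at -0.54 (0.074). Between empty vector and wild-type 0 of 10 were called, with 0 at an unadjusted p under 0.05 by limma, and 0.484% of all genes were higher and 1.52% lower. With the pan-neuronal shift 1 member was called there, and of all 18191 genes 49 were called higher and 3386 lower. Of these calls 1.4% were higher in place of 24.2%.

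The second Lhx1 probe set rose by 0.34 with knockdown, 1.26-fold, both against empty vector (SE 0.09, limma adjusted p = 0.016 over all probe sets) and against wild-type (0.012). The leading one differed by 0.03 and 0.06. The rise was not called after the pan-neuronal shift (0.31, with limma adjusted p = 0.063, and 0.10, with adjusted p = 0.46), nor without some single arrays (adjusted p up to 0.071 and 0.053).

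Other measures moved with the knockdown in cell bodies. Gapdh is read near both ends of its transcript, and the 3' minus 5' gap, which grows as RNA is shortened or degraded, was 3.99 to 4.12 with knockdown, 3.53 to 3.68 with empty vector and 3.11 to 3.61 without virus. In the comparison with empty vector 28.0% of all genes were called in either direction. There microglia and macrophage markers were called higher in 13 of 14 cases, with 0 lower. Against wild-type 9 of these markers were higher and 1 lower, and empty vector against wild-type gave 0 higher and 10 lower. The mean level of these markers was 8.20 to 8.56 with knockdown, 6.02 to 6.34 with empty vector and 7.84 to 7.93 without virus. Against empty vector astrocyte markers were called lower in 5 of 8 cases, with mean levels of 9.28 to 9.75 against 9.91 to 10.18 and 9.96 to 10.10. Oligodendrocyte lineage markers fell in 2 of 4 cases, with 8.09 to 8.99 against 9.42 to 9.87 and 9.75 to 9.96, and markers of progenitors and dividing cells in 3 of 5, with 8.38 to 8.82 against 9.36 to 9.68 and 9.46 to 9.67. Markers of other spinal neurons kept mean levels of 7.34 to 7.40, 7.34 to 7.40 and 7.33 to 7.44. Their part in the fall of Foxp1 and in the list results that follow was not tested. All knockdown arrays also carry another title scheme than all control arrays, and the labels do not say whether they were handled apart, so such handling and the knockdown cannot be told apart.

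Genes around the members were taken from 4 lists on motoneuron biology and pan-neuronal genes, and up to 4 with the lowest p of each are named. These counts stand beside the 28.0% of all genes called in either direction against empty vector (2267 higher and 2821 lower of 18191) and, against wild-type, 15.6% higher and 20.4% lower. Of 18 genes of motoneuron columns, pools and subtypes, 8 were lower against empty vector, 0 were higher and 10 did not pass, with a median of -0.19 against -0.02 over all genes. Pbx3, a cofactor of Hox proteins, fell from 11.73, 11.73 and 11.92 with the empty vector to 10.80, 10.68 and 10.66 with knockdown, with wild-type at 11.64, 11.93 and 11.79. The knockdown arrays lay below all controls, where 43.3% of all genes did not overlap against empty vector and 48.7% against wild-type. For Pbx3 the fall was 2.12-fold (log2 -1.09, SE 0.10, limma adjusted p = 7.7e-06). Ret, a receptor tyrosine kinase, fell 1.69-fold, Met, the receptor for hepatocyte growth factor, 1.52-fold, and Gfra1, the GDNF-binding partner of Ret, 1.44-fold. For Ret, Met and Gfra1 the second probe set gave differences of 0.01, 0.18 and 0.15 instead. Over the list 2 genes were called when each gene was read by its second probe set, 5 without empty vector replicate 1 or 3 or knockdown replicate 1 or 2, and 0 with the spread taken over all 18 arrays. Against wild-type 10 were lower and 0 higher (median -0.41), with Pbx3 at -1.08 and Ret at -0.99.

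Of 18 partners of LIM proteins and genes that specify motoneurons, 2 were higher and 3 lower (median -0.08), a share near that of all genes. Stat3, the transcription factor downstream of CNTF receptors, rose 1.85-fold, and Rlim, a ubiquitin ligase that targets LIM cofactors, 1.29-fold. Lmo3, a LIM-only protein, fell 1.77-fold. Olig2, which motoneuron progenitors and the oligodendrocyte lineage share, fell from 8.73, 7.86 and 8.76 to 6.36, 6.48 and 7.26, with wild-type at 8.75, 8.82 and 8.44, at least 3.32-fold. Against wild-type 3 were higher and 4 lower.

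Of 19 measured genes of cholinergic synthesis, release and response, 2 were higher and 4 lower (median -0.04), again near the share of all genes. The choline transporters of the Slc44 family went apart, with Slc44a1 1.36-fold lower and Slc44a2 1.31-fold higher, the latter at -0.20 by its second probe set. Bche, butyrylcholinesterase, was at least 1.21-fold lower, and Acly, which makes the acetyl-CoA used for acetylcholine and lipids, 1.19-fold higher. Against wild-type 4 were higher and 4 lower. Of 12 pan-neuronal genes 2 were higher and 4 lower, against 28.0% of all genes in either direction. Gap43, a growth cone protein, rose 2.00-fold, and the neurofilament Nefl, the splicing factor Rbfox3 and the microtubule protein Map2 fell 1.38-fold, 1.49-fold and 1.30-fold, with Rbfox3 at 0.08 by its second probe set. Against wild-type 4 were higher and 3 lower.

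Markers of other spinal neurons had 2 of 18 higher and 1 lower, a smaller share than the 28.0% of all genes, with no test of that difference. Slc6a5, the glycine transporter of inhibitory neurons, fell 1.83-fold, Slc32a1, the vesicular inhibitory amino acid transporter, rose 1.52-fold and Pax8 1.30-fold, with Slc32a1 at -0.05 by its second probe set. Against wild-type 2 were higher and 3 lower.

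**Figure D4:**
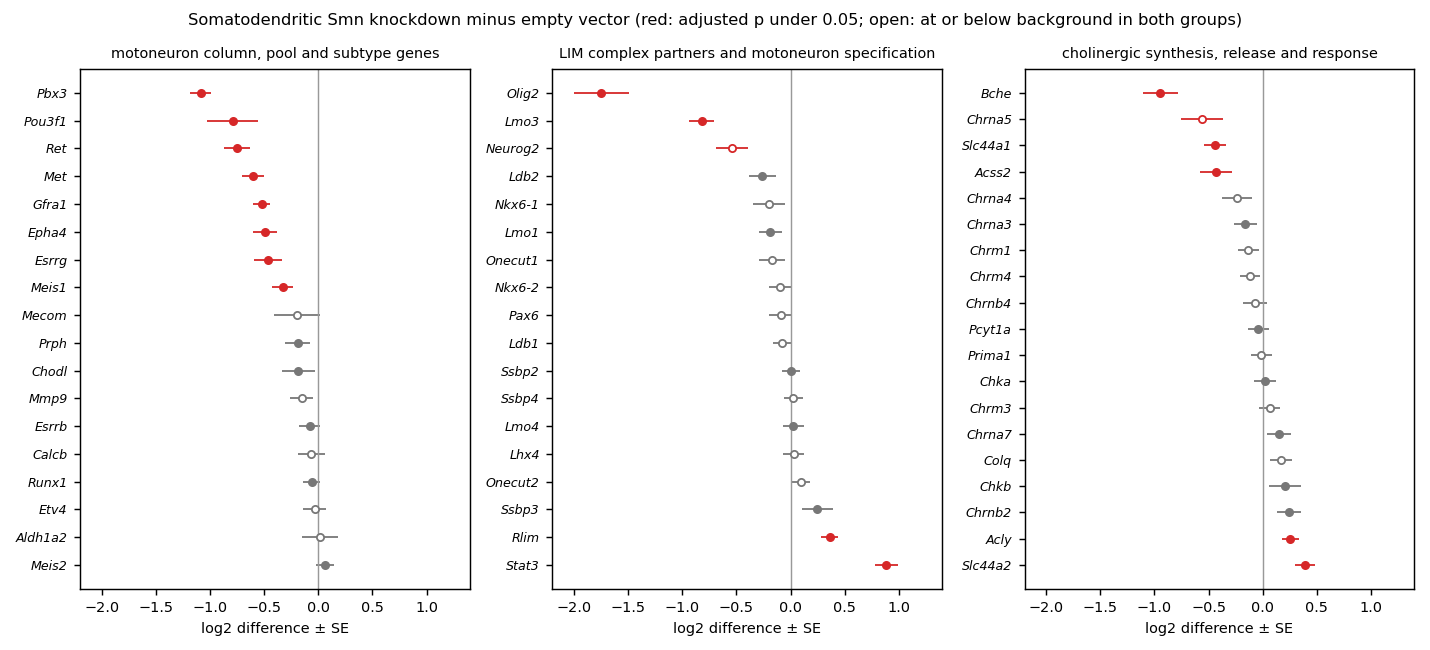
Log2 differences (x axis, with limma's SE as bars) of somatodendritic Smn knockdown from empty vector for every measured gene (y axis) of 3 lists. Red marks adjusted p under 0.05, and open points genes at or below background in both groups. In the left panel all 8 red points lie below 0, and in the other panels red points lie on both sides.

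As a description, the genes most like the measurable members over the 9 somatodendritic arrays were sought by Pearson's r among 9168 genes above background on all 9. For Foxp1 they were Cbln4, a secreted synapse organiser (r = 0.997, n = 9), and Gprasp2 (0.995). Cbln4 averaged 10.58, 10.13 and 8.55 in wild-type, empty vector and knockdown arrays, and Gprasp2 12.53, 12.47 and 12.13. For Lhx1, which changed little, they were Wdr59 (0.968) and Lzts3 (0.917), whose values spanned 0.45 and 0.41 over the arrays. The points share group, array and normalization.

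In axons the question was which of these transcripts change there with Smn knockdown against empty vector, and 0 of 10 were called. The same held against wild-type and between both controls. At an unadjusted p under 0.05, limma gave 1, 2 and 0 of 10. The share of all genes at that threshold was not counted, so these counts are not read as a result. Over all genes 0.0165% were called higher and 0.159% lower against empty vector, 0.00550% and 0.0935% against wild-type, and 0% and 0% between the controls. The pan-neuronal shift moved the median of all genes by 0.66, 0.38 and -0.28 in these comparisons, and the share of higher calls to 31.6% from 9.4% against empty vector, to 26.7% from 5.6% against wild-type, and to 0 of 1 call between the controls.

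Slc18a3 had the lowest p against empty vector, with a difference of 0.86 (SE 0.24, limma adjusted p = 0.12), and 0.92 (0.087) against wild-type, below background in all groups. Foxp1 by its leading probe set read 8.30, 6.66 and 8.12 in wild-type, 7.03, 7.42 and 8.45 in empty vector and 7.96, 8.40 and 8.11 in knockdown arrays. The groups overlapped, and the difference from empty vector was 0.53 (SE 0.51, adjusted p = 0.64). Of the 8 Foxp1 probe sets 6 stood above 0 and 2 below in this comparison, and 0 were called against either control. Probe set 1443258_at read 8.59, 7.50 and 7.36 in knockdown arrays, above all wild-type ones (6.505, 6.32 and 6.50). Its empty vector arrays, at 6.97, 7.49 and 6.41, overlapped the knockdown ones. Probe set 1421140_a_at read lower with knockdown, at 6.49, 6.46 and 6.30 against 6.82, 7.92 and 7.54 with the empty vector. Its wild-type arrays, at 6.93, 6.40 and 6.59, overlapped the knockdown ones. The share of all probe sets without overlap on the axonal arrays was not counted. Lhx1 differed by 0.31 (SE 1.18, 0.92) from empty vector and by -2.09 (0.36) from wild-type. Of the 4 lists and the markers of other spinal neurons, 0 genes were called against empty vector. For Lhx1 the standard error exceeded the difference from empty vector and for Foxp1 it nearly equalled it, so changes of that size were not detectable in axons.

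Whether the effect of knockdown against empty vector differed between compartments was tested with an interaction term over all 18 arrays. It was called for Slc18a3 alone of the 10, at 0.91 (SE 0.21, limma adjusted p = 0.024), where 4.21% of all genes were called higher and 2.56% lower. With the pan-neuronal shift the median of all genes moved by 0.69 and 16.7% of the calls were higher in place of 62.2%, and with the background level of each array subtracted these were -0.45 and 16.4%. The Slc18a3 call ended under both (adjusted p = 0.16 and 0.34). It also ended without any of somatodendritic empty vector replicates 1, 2 and 3 and knockdown replicates 1 and 2 (0.055 to 0.074). For Foxp1 the interaction was 1.34 (SE 0.54, adjusted p = 0.16), so the fall in cell bodies was not shown to differ from the axonal value.

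Levels of the compartments were compared last, with the caution that their values were normalized apart. In controls, 4 of 10 genes were higher in axons (Slc18a3, Ache, Isl2 and Mnx1) and 3 lower (Isl1, Lhx1 and Foxp1), where 35.7% of all genes were called higher and 25.9% lower. With knockdown 4 were higher, the same genes, and Lhx1 was lower, where 34.0% and 27.7% were. The pan-neuronal shift moved the median of all genes by 1.03 in controls and 1.68 with knockdown, and the share of higher calls to 89.1% from 57.9% and to 90.4% from 55.1%. With background subtracted the median moved by -0.29 and -0.82, and 26.4% and 19.2% of the calls were higher.

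The genes called higher in axons were at or below background in cell bodies and, but for 4 arrays of Isl2, in axons. They stood at 0.63 for Slc18a3, 0.80 for Ache, 0.94 for Isl2 and 0.82 for Mnx1 in controls (limma adjusted p of 4.1e-05 to 3.9e-04), and no fold is given. Background itself reached higher on the axonal arrays (6.41 to 7.26) than on the somatodendritic ones (6.27 to 6.53), with overlap between these ranges. With joint normalization of all 18 arrays Slc18a3 was at 0.19 (adjusted p = 0.21), with background subtracted at 0.34 (0.062), and with background subtracted Isl2 in knockdown stood at -0.23. Markers of skeletal muscle, at or below background in every group, were likewise called higher in 5 of 6 cases with 0 lower.

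The probe sets of Lhx1 went opposite ways between compartments. The leading one was at -1.69 (SE 0.63, limma adjusted p = 0.032), at least 2.42-fold lower in axons of controls, and the second at 0.79 (SE 0.29, adjusted p = 0.030 over all probe sets), 1.73-fold higher. Among all probe sets 44.5% were called higher and 18.8% lower. The leading probe set's call ended in wild-type arrays alone (-0.47, adjusted p = 0.69), under joint normalization (-0.93, 0.32) and with the number in the array titles as a replicate block (0.059). It also ended without any of 7 single arrays, namely somatodendritic wild-type 1, 2 and 3, somatodendritic empty vector 1 and 3, and axonal wild-type 1 and 2 (0.051 to 0.071). Isl1 was at -1.18 (SE 0.31, limma adjusted p = 0.0058) by its leading and at 0.39 (adjusted p = 0.068) by its second probe set, both without a fold.

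Foxp1 was at -1.36 (SE 0.27, limma adjusted p = 0.0011), at least 2.54-fold lower in axons of controls, and probe set 1435222_at at -3.13 (SE 0.47, 1.6e-04), at least 2.23-fold. That probe set read 4.82, 4.22 and 4.31 in axonal wild-type, 4.21, 4.60 and 6.68 in empty vector and 7.15, 4.35 and 4.49 in knockdown arrays, so it was above background on 1 of 9 axonal arrays and on all 9 somatodendritic ones. The call of the leading probe set ended under joint normalization (-0.70, 0.11) and after the pan-neuronal shift (-0.34, 0.47). Another Foxp1 probe set, 1443258_at, was higher in axons, at 0.93 (0.0018), and below background in cell bodies. Of all 8 Foxp1 probe sets 2 were called lower and 2 higher in axons of controls, with 4 differences on each side of 0. Of all probe sets 18.8% were called lower and 44.5% higher there. With knockdown the leading probe set did not separate the compartments (0.03, 0.94). Of the 8 Foxp1 probe sets 1 was then called lower and 3 higher, and the share of all probe sets was not counted. Over the lists, 3 of 18 column, pool and subtype genes were higher and 8 lower in axons of controls (median -1.24), and 1 and 8 of 12 pan-neuronal genes (median -1.28), against a median of 0.18 over all genes.

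**Figure D5:**
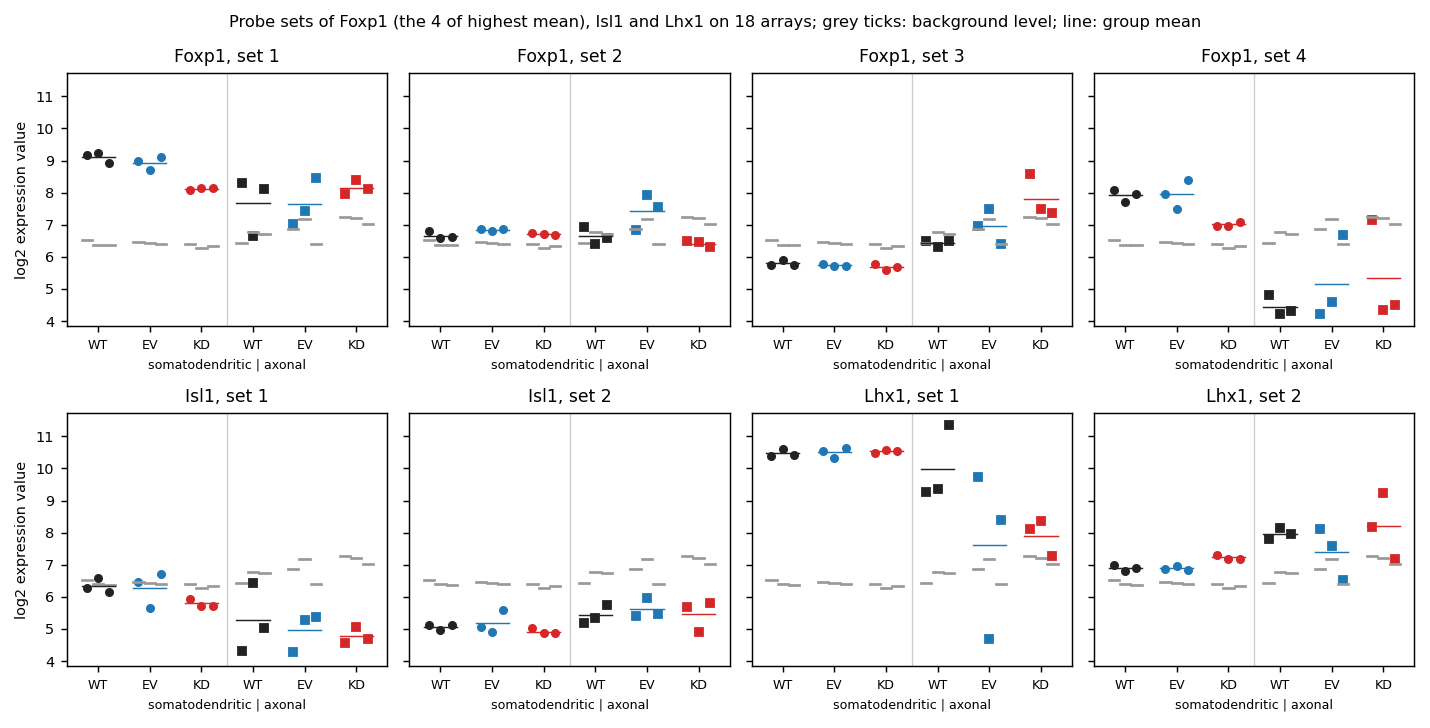
Log2 expression values (y axis) of the 4 Foxp1 probe sets of highest mean and both probe sets of Isl1 and Lhx1 on all 18 arrays, by group (x axis, WT wild-type, EV empty vector, KD Smn knockdown). Circles are somatodendritic and squares axonal arrays, coloured lines group means, and grey ticks the background level of each array. Foxp1 sets 1 and 4 are lower with knockdown in cell bodies, and the probe sets of Lhx1 go opposite ways between compartments.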

How the data were processed

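Labelled RNA, amplified in 2 rounds per the labels, was measured on 18 arrays in 6 groups of 3, with groups taken from the labels. The deposited log2 values (45101 probe sets per array, 2.541 to 15.030) were made by the authors with software not given in the sources used here. Within a compartment the deposited arrays share 1 distribution of log2 values, so the authors normalized the compartments separately. Between arrays the sorted values deviated by no more than 0.0048 (somatodendritic) and 0.0125 (axonal), with medians of 5.774 and 5.948.

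Probe sets were named with the platform annotation (34934 named 1 gene, 932 several and 9160 none), after leaving out 64 control probe sets and 11 without a value on some arrays. The probe set of highest mean stood for its gene. Tests used lmFit and eBayes of limma 3.58.1 (R 4.3.3), and p was adjusted by Benjamini-Hochberg over 18191 genes, or over 45026 probe sets where said, at a threshold of 0.05. Within a compartment its 9 arrays were fitted, and across compartments all 18, with no filter on dim genes. Where 1 group was not above background, a fold is given as "at least", against the background level, and where neither was, none is given. For arrays, 3 per group limit the precision. Members and lists were chosen with earlier results of these data known. Named list genes are the up to 4 lowest p against empty vector among those called. The fit was tested on simulated data. Alternatives covered probe set choice, filters, scaling, weights and single arrays.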

Additional observations from a re-analysis of the deposited data

Results flagged for a closer look

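The effect of Smn knockdown against empty vector on Slc18a3 differed between compartments by the interaction test, with a difference of 0.91 on the log2 scale (limma adjusted p = 0.024). The effect was 0.86 in axons and -0.05 in cell bodies, and the gene was at or below background on all 18 arrays. The call held in 13 of 21 alternatives, and the compartments were normalized apart.

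For the Foxp1 probe set 1421141_a_at, the axonal knockdown arrays lay above all wild-type arrays, by 0.35, and the somatodendritic ones below them, by -0.35. The probe set was below background throughout, and the difference between these effects was not tested for this control. In axons the empty vector arrays, at 3.67, 3.77 and 3.57, also lay above all wild-type ones (3.36, 3.23 and 3.47). They overlapped the knockdown arrays (3.88, 3.56 and 3.685). The share of all probe sets without overlap on the axonal arrays was not counted.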

How the results depend on the processing

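Of the 10 members, 3 were called with Smn knockdown against empty vector in cell bodies. With dim genes left out 1 was, and with all 18 arrays in the fit 0. Against wild-type 1 was called, with array weights 2, with pan-neuronal scaling 3 and with all 18 arrays 0. Between somatodendritic controls 0 were called, and 1 with pan-neuronal scaling. In axons 0 were called against either control, and with all 18 arrays 1 against empty vector and 2 against wild-type. Between compartments in controls 7 were called, with dim genes left out 2 and with joint quantile normalization 4. With knockdown 5 were called, and 1 with dim genes left out. In the interaction 1 was called, and 0 with dim genes left out, with array weights or with pan-neuronal scaling. Leaving out single arrays gave 1 to 3 calls against empty vector and 1 to 2 against wild-type in cell bodies, and 0 to 1 in the interaction.

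By their second probe set some genes changed sign. Against empty vector this gave Slc44a2 -0.20, Gfra1 0.15, Ret 0.011, Met 0.18, Rbfox3 0.084 and Slc32a1 -0.048. Against wild-type it gave Foxp1 0.040, Slc44a2 -0.25, Gfra1 0.061, Ret 0.051, Met 0.18 and Map2 0.086. Between compartments it gave Isl1 0.39, Lhx1 0.79 and Foxp1 0.28 in controls and Lhx1 0.96 with knockdown. Slc44a2 also changed sign, to the same values, without probe sets ending in _x_at or _s_at. With background subtracted, an alternative chosen after seeing the data, Isl2 stood at -0.23 between compartments with knockdown. The cause was not tested.

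With the title number as a replicate block, 0 members were called between somatodendritic and 0 between axonal controls, and 7 between compartments in controls. Of 18 control pairs of the same number, 1 correlated above 0.1 (range -0.19 to 0.23), so a shared origin was not shown. Such low values cannot exclude a shared culture or batch, since the spread between arrays may be technical. Knockdown titles follow another scheme and could not be blocked. Over 53 single-gene results and 825 alternatives, 696 kept direction and side of the threshold, 110 lost the call and 19 changed sign. Signal over background limits 5 of 10 members on all arrays.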
